A study of Homo sapiens with 6 samples.

Results

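The genes described here are 33 regulators and target genes of the tumour suppressor p53, grouped by role as regulators of p53 and as genes of growth arrest, DNA repair, cell death and metabolism. They were chosen by name, with earlier results of these data known, as all probe sets that the platform annotation assigns to those symbols. Of the 33 genes, 31 had a value, through 102 of the 49293 tested probe sets, among 18239 genes in all. BTG2 and FDXR were not analysed here. The cells were MV4;11, a human leukemia line that carries a rearrangement of the MLL gene, and their RNA was read on Affymetrix arrays that favour the 3-prime end of a transcript. The MI-389 group received 4 µM of MI-389, an inhibitor of the binding of menin to MLL, and the control group received the solvent, with 0.25% DMSO in both. Treatment lasted 6 days, with fresh medium, compound or solvent on day 3, and each group held 3 arrays. All cells carried the same genetic background. The labels name the arrays of a group as biological replicates without saying how the cultures were kept apart, so p-values reflect only how far these samples differ from each other, part of which may be technical.

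The transcription factor p53 is held at a low level in unstressed cells by MDM2, a ubiquitin ligase whose own gene p53 activates, and by the MDM2 partner MDM4. DNA damage and other stresses release p53, which then binds a paired element in DNA and raises genes that stop the cell cycle, repair DNA, start apoptosis or change metabolism. Many of these genes also answer to other factors, such as ATF4 and CHOP in amino acid or endoplasmic reticulum stress and the FOXO factors in growth factor withdrawal.

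The element bound by p53 is shown first, since it is the sequence feature that defines many of these genes. It consists of a pair of 10-base motifs with a spacer of up to 13 bases, and was searched for by its published consensus, which reads the same on both strands, in RefSeq promoter windows (GRCh38.p14) of 250 bases before and 50 bases after annotated transcript starts. Both 4-base cores had to match, and mismatches were counted over the other positions. Windows were found for 25 of the 31 measured genes. With at most 3 mismatches the element was found in windows of 5 of these 25 genes, against 4.49% of all 35116 windows, and with at most 2 mismatches in windows of 3 genes, against 1.46% of all windows. Several of the 25 genes have more than 1 window, so the shares of genes and of windows do not compare directly. An exact match was found for DDB2, against 0.0285% of all windows. The 5 stretches follow, 80 bases each, 5′ to 3′ on the strand of the gene, with the pair of motifs in capitals.
DDB2 (chr11:47214944-47215023, plus strand, 0 mismatches): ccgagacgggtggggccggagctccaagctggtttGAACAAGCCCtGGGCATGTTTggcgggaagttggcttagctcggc
AEN (chr15:88621276-88621355, plus strand, 2 mismatches): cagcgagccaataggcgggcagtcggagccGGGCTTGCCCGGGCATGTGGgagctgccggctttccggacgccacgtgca
FAS (chr10:88991279-88991358, plus strand, 2 mismatches): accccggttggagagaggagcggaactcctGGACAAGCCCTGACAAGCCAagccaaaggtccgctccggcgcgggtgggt
GDF15 (chr19:18386128-18386207, plus strand, 3 mismatches): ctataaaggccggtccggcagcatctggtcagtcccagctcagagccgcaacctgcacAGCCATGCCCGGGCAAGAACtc
RPS27L (chr15:63157608-63157687, minus strand, 3 mismatches): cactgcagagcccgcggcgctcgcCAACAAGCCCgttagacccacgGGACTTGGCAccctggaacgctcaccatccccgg

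These 5 genes did not move together: DDB2 rose, AEN fell, and FAS, GDF15 and RPS27L were not called, as detailed by class below. A match describes the letters of the window and does not show that p53 bound there. Many p53 elements lie in introns or farther upstream, outside these windows.

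Values are log2 RMA values as deposited, and each gene is represented by its brightest probe set. A difference is MI-389 minus DMSO on the log2 scale, with the standard error (SE) and adjusted p from limma over all 18239 genes. Genes with an adjusted p under 0.05 are called, and "rose" and "fell" are used of those. Bulk RNA cannot tell fewer expressing cells from less RNA per cell. Nonspecific control probe sets served as a guide to background. Without the most GC-rich of them, their highest value on any array was 5.49, and RMA compresses differences of genes near or under that level. Where both groups lay under 5.49 no fold is given, and where 1 group did, the fold is a lower bound with 5.49 in place of the dimmer mean.

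Across probe sets the correlation was 0.997 to 0.998 within a group and 0.979 to 0.981 between the groups. On the second principal component, which held 4.91% of the variance, MI-389 replicate 3 stood apart from the other arrays. Where leaving out 1 array changed the call of a gene named below, the value without it is given. The myeloid markers of the line were present, with LYZ, FLT3, PTPRC, CSF1R and ITGAM above 5.49 in at least 1 group. SPI1 and CD14 lay under 5.49 in both groups. Of 10 measured markers of T, B, erythroid, epithelial and fibroblast cells, 9 lay under 5.49 in both groups, and 1 was called higher and 3 lower. Their summed log2 values were 42.0 to 42.4 on the MI-389 arrays and 43.5 to 43.7 on the DMSO arrays. The exception was KRT18, with 4.83, 4.82 and 4.73 on the MI-389 arrays and 6.21, 5.94 and 6.00 on the DMSO arrays. The summed log2 values of 7 myeloid markers were 55.6 to 56.0 on the MI-389 arrays and 49.3 to 51.2 on the DMSO arrays, with 5 called higher and 2 lower. The part of this shift in the changes below was not tested.

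The p53 genes moved in both directions. Among the 31 measured genes 6 rose and 10 fell, and 15 were not called. The falls took in MDM2, the arrest genes GADD45A and CCNG1 and the death receptor gene TNFRSF10B. The rises took in CCNG2, PLK2, TP53INP1 and the nucleotide excision repair genes DDB2 and XPC. The calls of MDM2 and XPC were each lost when certain single arrays were left out, and MDM2 probe sets were called in both directions. The median log2 difference of the 31 genes was -0.03, against 0.02 for all genes. The sign of that median was not stable, since it was 0.0014 without MI-389 replicate 1, 0.0054 without DMSO replicate 3 and -0.060 without MI-389 replicate 3. Over all genes 34.1% were called, 18.4% higher and 15.7% lower, and over the p53 genes 51.6% were called. The p53 genes were brighter than most: after the dimmest 40% of genes were dropped, 15 of 27 p53 genes (55.6%) were called, against 55.4% of all remaining genes. In that comparison their share was close to that of the other genes.

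The 3 MI-389 arrays and the 3 DMSO arrays did not overlap for 19 of the 31 genes (61.3%), against 45.3% of all genes. That share was not taken again without the dim genes, so the greater brightness of the p53 genes also bears on it. Across the 31 genes the differences ran between -0.85 for GADD45A and 1.22 for PLK2, with SEs of 0.05 to 0.13. When the arrays were instead centred on the hybridisation spike-ins, which read 0.25 higher on the MI-389 arrays, the median of all genes was -0.23. Of all 18239 genes 1397 were then called higher and 11056 lower. The counts of p53 genes became 3 higher and 20 lower, and their median -0.28. The share of called genes that were higher was then 11.2% over all genes, against 53.9% in the values as deposited, and 13% over the p53 genes, against 37.5%. That centring lowers every gene by the same amount, so the order of the changes among the p53 genes is the same. Whether the higher spike-in values came from the hybridisation or from the RNA of the cells was not tested. The counts with this centring are therefore not a measure of RNA per cell.

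**Figure D1:**
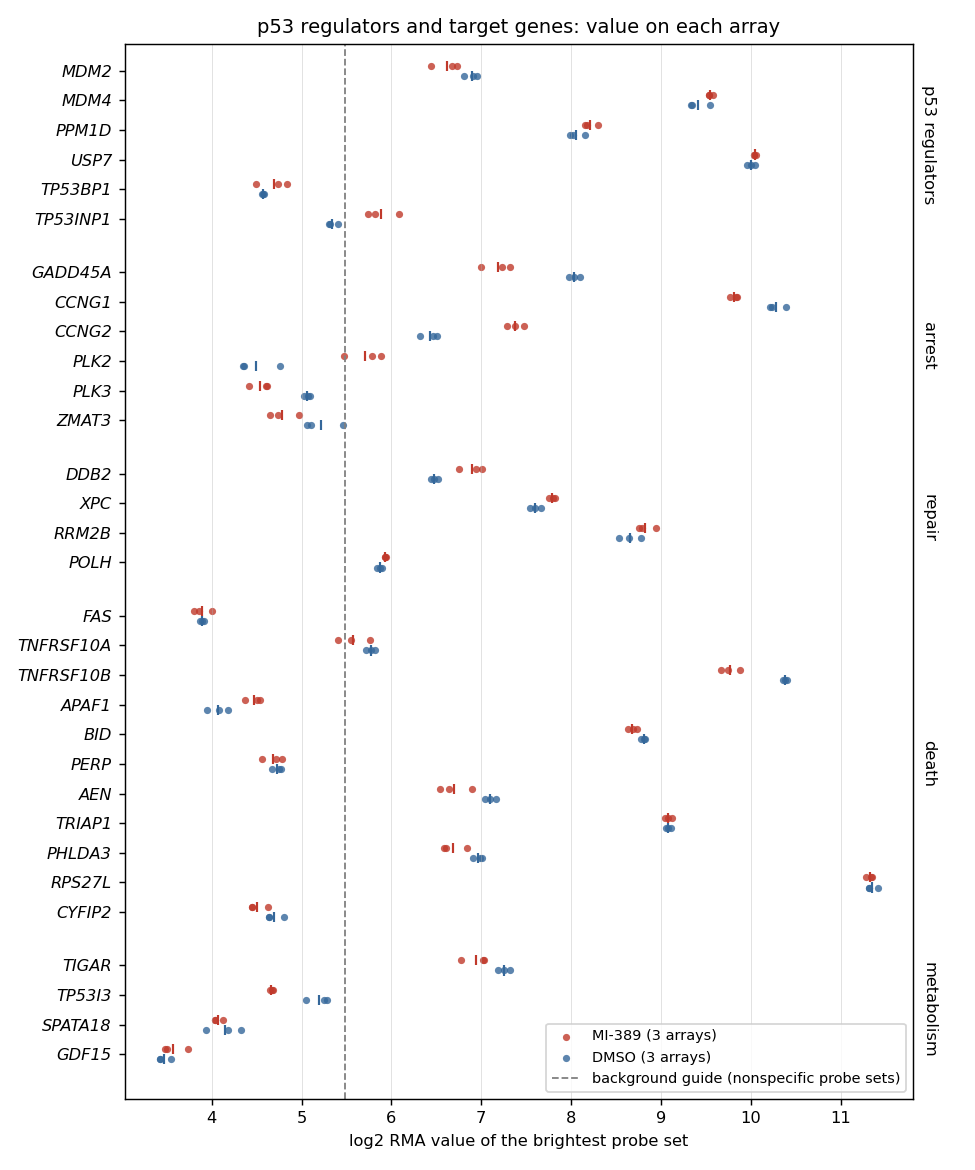
Log2 RMA value of the brightest probe set of each of the 31 measured genes, by class down the page, with each point an array, MI-389 in red above DMSO in blue, short vertical bars at the group means and the dashed line at 5.49, the guide to background. GADD45A, CCNG1 and TNFRSF10B lie lower with MI-389 and CCNG2 and PLK2 higher, with no overlap of the groups, and 10 genes lie left of the line in both groups.

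Among the 6 regulators of p53, TP53INP1 rose, MDM2 fell and the other 4 were not called, with a median difference of 0.13. With the spike-in centring the differences of the other 4 were negative, between -0.21 and -0.10, 1 gene was called higher and 2 lower. With the probe sets of each gene averaged the median was 0.07, and 1 gene was called higher and 0 lower. TP53INP1 encodes a stress-induced nuclear protein that promotes the phosphorylation of p53. It read 5.74, 5.82 and 6.09 on the MI-389 arrays and 5.31, 5.32 and 5.41 on the DMSO arrays. Every MI-389 array lay above every DMSO array, and the difference was 0.54 (SE 0.09, adjusted p = 7.21e-04), at least 1.32-fold against 5.49. Its other probe set was dimmer, under 5.49, with a difference of -0.03 and no call.

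The brightest MDM2 probe set read 6.44, 6.68 and 6.73 on the MI-389 arrays and 6.91, 6.95 and 6.81 on the DMSO arrays. The groups did not overlap, and the DMSO arrays were all higher, by little. The difference was -0.28 (SE 0.08, adjusted p = 0.0240), a level 1.21-fold lower with MI-389. The call rested on few arrays, since without MI-389 replicate 1, DMSO replicate 1 or DMSO replicate 2 the adjusted p was 0.0680, 0.0726 and 0.0934, with differences of -0.19, -0.27 and -0.25.

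The probe sets of MDM2 did not all move one way. Of its 11 probe sets, 2 were called lower and 2 higher, and it was the only 1 of the 24 genes with several probe sets that was called in both directions. The second brightest, at 5.67 with MI-389 and 5.71 with DMSO, differed by -0.04 and was not called. The 2 probe sets called higher, by 0.31 and 0.33, and the other called lower, by -0.61, had both groups under 5.49. The mean of all 11 probe sets differed by 0.025 (adjusted p = 0.726). Which MDM2 transcripts each probe set reads was not checked.

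MDM4 blocks the activation domain of p53. It read 9.53, 9.53 and 9.58 on the MI-389 arrays and 9.33, 9.55 and 9.34 on the DMSO arrays, with DMSO replicate 2 inside the MI-389 range. The difference of 0.14 was not called (95% interval -0.01 to 0.29, adjusted p = 0.155), and without DMSO replicate 2 it was 0.21 and called (adjusted p = 0.0369). None of its 6 probe sets was called.

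PPM1D, a phosphatase that switches off p53 and its kinases and is itself a p53 target, differed by 0.15 (adjusted p = 0.121), with means of 8.21 ± 0.08 with MI-389 and 8.06 ± 0.09 with DMSO (SD, n = 3 each). After a further quantile normalisation its difference was 0.19 and called (adjusted p = 0.0463). Of its 4 probe sets a dimmer one, at 5.93 with MI-389 and 5.67 with DMSO, was called higher by 0.26 (adjusted p = 0.0443 over all probe sets). USP7, which removes ubiquitin from p53 and MDM2, stood at 10.04 ± 0.01 with MI-389 and 10.00 ± 0.04 with DMSO, a difference of 0.04 (95% interval -0.08 to 0.16), and 1 of its 5 probe sets, under 5.49, was called higher by 0.20. TP53BP1, a p53-binding protein of double-strand break repair, lay under 5.49 in both groups, with a difference of 0.12 that was not called (adjusted p = 0.321). Without MI-389 replicate 1 the difference of TP53BP1 was 0.22 and called (adjusted p = 0.0271).

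All 6 measured arrest genes were called, 4 lower and 2 higher, with a median of -0.45. Over all genes 34.1% were called, and 55.4% after the dimmest 40% were dropped. PLK3 and ZMAT3 lay under 5.49 in both groups, and PLK2 did so in the DMSO group. With a minimum fold of 1.2, 2 arrest genes were called higher and 3 lower. GADD45A, which binds PCNA and the mitotic kinase CDK1, had the lowest difference among the 31 genes. Its single probe set read 7.0, 7.32 and 7.23 on the MI-389 arrays and 8.04, 8.10 and 7.98 on the DMSO arrays. The groups stood well apart, with a difference of -0.85 (SE 0.08, adjusted p = 2.24e-05), 1.81-fold lower with MI-389.

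The G-type cyclins changed in opposite directions. CCNG1, a long-known p53 target whose product recruits a phosphatase to MDM2, read 9.85, 9.83 and 9.76 on the MI-389 arrays and 10.39, 10.23 and 10.22 on the DMSO arrays. All DMSO arrays were higher, and the difference was -0.47 (SE 0.06, adjusted p = 2.69e-04), 1.38-fold lower. Its 5 probe sets were all called lower, with differences of -0.47 to -0.99, and the 3 dimmer ones showed the larger falls. CCNG2, a cyclin that accumulates in cells leaving the cycle and a target of FOXO factors, read 7.28, 7.38 and 7.47 on the MI-389 arrays and 6.51, 6.31 and 6.47 on the DMSO arrays. Here all MI-389 arrays were higher, by 0.95 (SE 0.07, adjusted p = 4.15e-06), 1.93-fold. Of its 5 probe sets 2 were called higher and the 3 dimmest were not called.

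The polo-like kinases PLK2 and PLK3, both p53 targets of the stress response, also parted. PLK2 read 5.78, 5.88 and 5.47 on the MI-389 arrays and 4.76, 4.35 and 4.36 on the DMSO arrays. The groups did not overlap, and the difference of 1.22 (SE 0.13, adjusted p = 3.99e-05) was the highest of the 31 genes. With 1 MI-389 array and all DMSO arrays under 5.49, it is given as at least 1.17-fold. Its other 3 probe sets lay under 5.49 and were not called. PLK3 read 4.41, 4.61 and 4.60 on the MI-389 arrays and 5.09, 5.03 and 5.07 on the DMSO arrays, a difference of -0.52 (adjusted p = 1.61e-04) with both groups under 5.49. A probe set shared between PLK3 and BTBD19 differed by -0.14 and was not called. ZMAT3, an RNA-binding zinc finger protein, differed by -0.43 (SE 0.11, adjusted p = 0.0143), with both groups under 5.49. ZMAT3 lost its call without MI-389 replicate 2 (-0.36, adjusted p = 0.0571) and without MI-389 replicate 3 (-0.40, adjusted p = 0.0501).

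**Figure D2:**
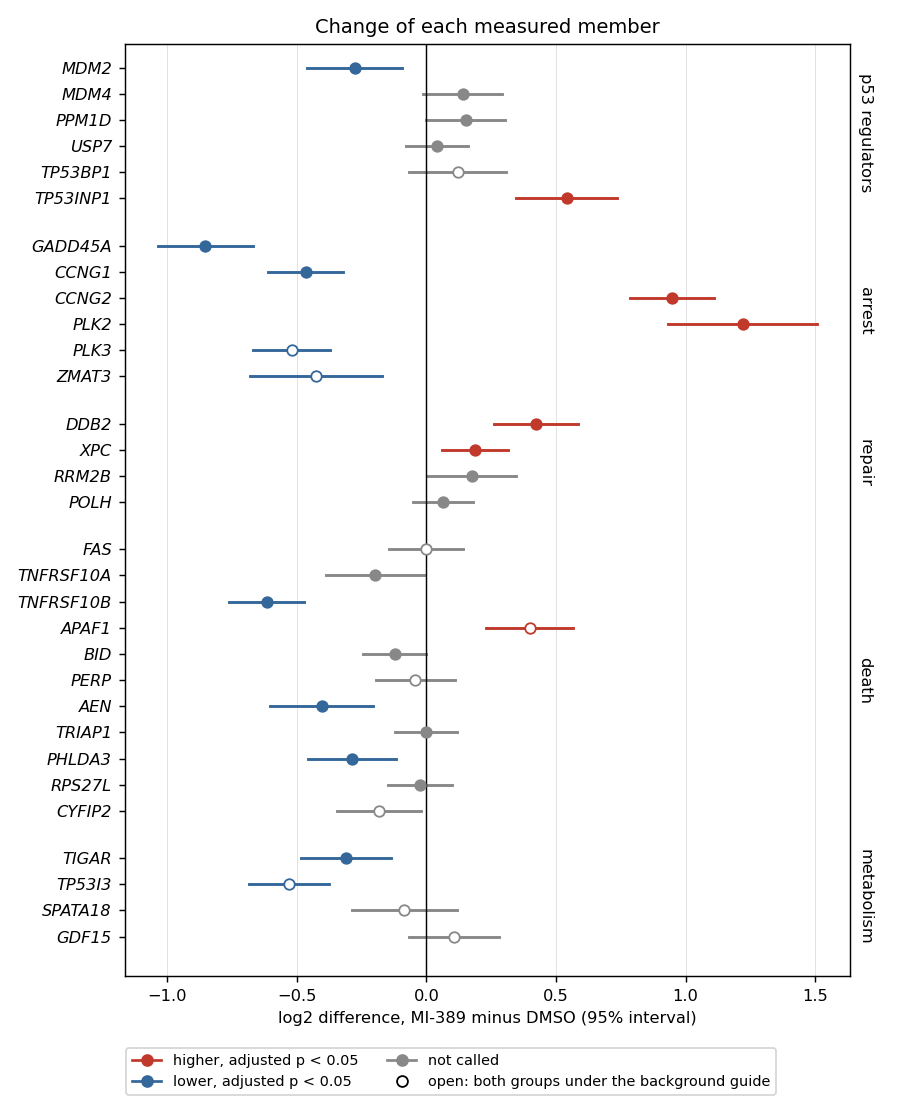
Log2 difference, MI-389 minus DMSO, of each of the 31 genes with its 95% interval, coloured red where called higher, blue where called lower and grey where not called, and open where both groups lay under 5.49. The arrest genes lie on both sides of zero between -0.85 and 1.22. The 4 repair genes lie right of zero at 0.06 to 0.42 (3 of them lie left of it with the spike-in centring). Of the 11 death genes 10 lie at or left of zero, and 3 were called lower. The signs of FAS, TRIAP1, RPS27L and PERP turned when certain single arrays were left out. Of all 18239 genes 9993 had positive and 8246 negative differences.

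The 4 repair genes all had positive differences in the values as deposited, 2 of them called, with a median of 0.18, but with the spike-in centring 3 of these differences turned negative and DDB2 was the exception. POLH was then called lower and none of the 4 higher. With the probe sets of each gene averaged 1 of the 4 was called higher. DDB2 encodes the damage-binding subunit that finds ultraviolet lesions for nucleotide excision repair, and just after its annotated start lies the exact p53 element printed above. It read 7.01, 6.95 and 6.75 on the MI-389 arrays and 6.51, 6.44 and 6.47 on the DMSO arrays. All MI-389 arrays were higher, by 0.42 (SE 0.07, adjusted p = 0.00108), 1.34-fold, and both of its probe sets were called, each with a difference of 0.42. Under the spike-in centring DDB2 differed by 0.17 and was not called (adjusted p = 0.0720).

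XPC, which recognises distorted DNA together with DDB2, read 7.75, 7.82 and 7.79 on the MI-389 arrays and 7.66, 7.60 and 7.54 on the DMSO arrays. The groups stood close but did not overlap, with a difference of 0.19 (SE 0.06, adjusted p = 0.0279), 1.14-fold. XPC lost its call without MI-389 replicate 2 or 3 (adjusted p = 0.0795 and 0.0528) and without DMSO replicate 2 or 3 (adjusted p = 0.0835 and 0.105), with the mean of its probe sets (0.14, adjusted p = 0.159) and with the replicate number as a block (adjusted p = 0.0663). The spike-in centring turned it to -0.066. RRM2B, the p53-induced subunit of ribonucleotide reductase, differed by 0.17 (95% interval 0.0011 to 0.35, adjusted p = 0.118), with means of 8.82 ± 0.10 with MI-389 and 8.65 ± 0.12 with DMSO. Of the 9 RRM2B probe sets 1 was called, higher by 0.25 with both groups under 5.49. POLH, the polymerase that copies past ultraviolet lesions, differed by 0.06 (95% interval -0.05 to 0.18), although its MI-389 arrays all lay above its DMSO arrays.

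Of the 11 death genes 1 rose, 3 fell and 7 were not called, with a median of -0.12. Under the spike-in centring, where 11056 of all 18239 genes were called lower, 0 rose and 10 fell. TNFRSF10B, the death receptor DR5 for the ligand TRAIL, is induced by p53 and also by CHOP. It read 9.67, 9.74 and 9.88 on the MI-389 arrays and 10.38, 10.40 and 10.36 on the DMSO arrays. The DMSO arrays lay close together and above every MI-389 array, with a difference of -0.62 (SE 0.06, adjusted p = 3.78e-05), 1.53-fold lower with MI-389. Its other 2 probe sets lay under 5.49 and were not called. TNFRSF10A, the companion receptor DR4, read 5.55, 5.40 and 5.76 on the MI-389 arrays and 5.82, 5.77 and 5.71 on the DMSO arrays. The groups overlapped, and its difference of -0.20 was not called (95% interval -0.39 to -0.0059, adjusted p = 0.110). Without MI-389 replicate 3 the difference of TNFRSF10A was -0.29 and called (adjusted p = 0.0113), and with array weights it was -0.22 and called (adjusted p = 0.0427). FAS, the receptor of the Fas ligand, lay under 5.49 on all 6 arrays at 3.80 to 4.01, with a difference of -0.0020 (95% interval -0.15 to 0.14).

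AEN, an exonuclease that p53 induces in apoptosis, read 6.90, 6.54 and 6.64 on the MI-389 arrays and 7.10, 7.04 and 7.16 on the DMSO arrays. All DMSO arrays were higher, and the difference was -0.41 (SE 0.09, adjusted p = 0.00483), 1.32-fold lower, although its promoter window carries the element shown above. PHLDA3, which keeps the survival kinase AKT from the membrane, read 6.85, 6.59 and 6.61 on the MI-389 arrays and 6.91, 7.01 and 6.98 on the DMSO arrays, a difference of -0.29 (SE 0.08, adjusted p = 0.0135). MI-389 replicate 1 lay close to the DMSO arrays. PHLDA3 lost its call without MI-389 replicate 2 (-0.24, adjusted p = 0.0517) and without DMSO replicate 2 (-0.27, adjusted p = 0.0562). Of its 3 probe sets, 2 were called lower.

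APAF1, the scaffold of the apoptosome, was called higher by 0.40 (SE 0.08, adjusted p = 0.00204), with both groups under 5.49 and 1 of 4 probe sets called. It read 4.37, 4.54 and 4.51 on the MI-389 arrays and 4.08, 3.95 and 4.19 on the DMSO arrays. With the spike-in centring APAF1 differed by 0.15 and was not called. BID, the BH3 protein that links death receptors to mitochondria, differed by -0.12 (95% interval -0.25 to -0.0010, adjusted p = 0.118) without overlap of the groups. Of its 4 probe sets 1 was called, at 8.31 with MI-389 and 8.49 with DMSO, a difference of -0.18 (adjusted p = 0.0464 over all probe sets). With the mean of the 4 BID differed by -0.13 and was called lower (adjusted p = 0.0326).

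The remaining death genes showed differences between -0.18 and -0.00077, with none called. TRIAP1, an inhibitor of apoptosome assembly, stood at 9.08 ± 0.04 with MI-389 and 9.08 ± 0.03 with DMSO. RPS27L, a ribosomal protein homologue that p53 induces, stood at 11.32 ± 0.03 with MI-389 and 11.35 ± 0.05 with DMSO, with the 95% interval of the difference from -0.15 to 0.10. PERP, a membrane protein of desmosomes and apoptosis, lay under 5.49 with overlapping groups. CYFIP2, a regulator of actin branching that p53 induces, also lay under 5.49, with a difference of -0.18 (adjusted p = 0.0789) that was called without MI-389 replicate 3 (-0.24, adjusted p = 0.0252).

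Of the 4 measured metabolic genes 2 fell and 0 rose, with a median of -0.20, and with the spike-in centring 3 fell. TIGAR, a phosphatase that lowers glycolytic flux, read 6.77, 7.02 and 7.03 on the MI-389 arrays and 7.32, 7.25 and 7.19 on the DMSO arrays. All MI-389 arrays were lower, with a difference of -0.31 (SE 0.08, adjusted p = 0.0103), 1.24-fold, and its dimmer probe set differed by -0.32 without a call (adjusted p = 0.0548 over all probe sets). TP53I3, a quinone oxidoreductase known as PIG3, read 4.68, 4.67 and 4.65 on the MI-389 arrays and 5.28, 5.25 and 5.05 on the DMSO arrays. Its difference was -0.53 (SE 0.07, adjusted p = 1.76e-04), with both groups under 5.49 and a single probe set.

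SPATA18, a protein of mitochondrial quality control, and GDF15, a secreted stress hormone induced by p53 and by CHOP, were not called and lay under 5.49 on all 6 arrays. SPATA18 differed by -0.09 (95% interval -0.29 to 0.12). GDF15 read 3.50, 3.74 and 3.48 on the MI-389 arrays and 3.43, 3.43 and 3.54 on the DMSO arrays, with a difference of 0.11 (95% interval -0.07 to 0.28). The groups of GDF15 overlapped, and 2 further probe sets that the annotation gives to GDF15 under 2 gene entries were not called either.

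Over all 102 probe sets of the 31 genes, 13 were called higher and 17 lower, against 28% of all probe sets called. Of the 102, 61 lay under 5.49 in both groups. Among the 24 genes with more than 1 probe set, CCNG1 and DDB2 had every probe set called the same way.

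**Figure D3:**
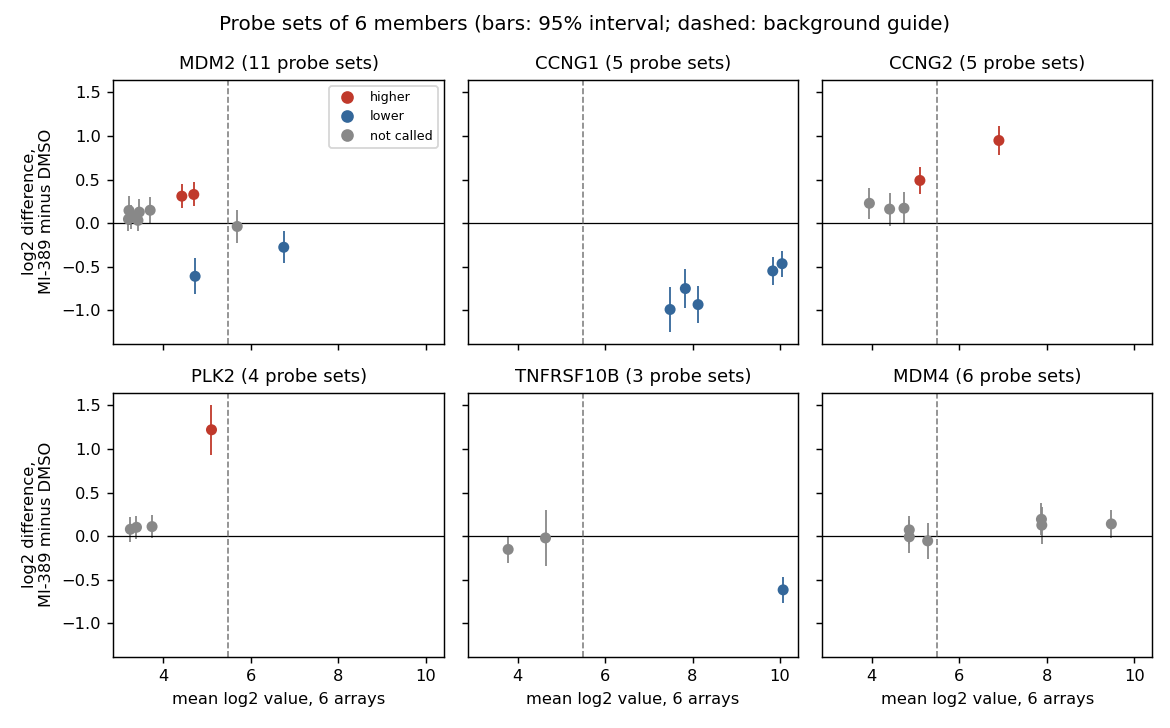
Log2 difference, MI-389 minus DMSO, of each probe set of 6 genes against its mean log2 value over the 6 arrays, with 95% intervals and the dashed line at 5.49. The 5 CCNG1 probe sets all lie below zero, the 11 of MDM2 lie on both sides, and for CCNG2, PLK2 and TNFRSF10B the brightest probe set has the largest difference.

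The wider p53 network was read from lists of other pathway genes, composed with earlier results of these data known. Their counts describe the lists and test nothing. For comparison, 34.1% of all genes were called, and 55.4% after the dimmest 40% were dropped. With the spike-in centring 11056 of all 18239 genes were called lower and 1397 higher. Of 37 further p53 target genes 10 rose and 11 fell (56.8% called), with a median of -0.0078. With the spike-in centring 4 rose and 22 fell, and with the probe sets of each gene averaged 6 rose and 9 fell. CDKN1A, the p21 inhibitor of cyclin-dependent kinases, read 6.96, 6.96 and 6.72 on the MI-389 arrays and 8.57, 8.69 and 8.68 on the DMSO arrays, 3.41-fold lower (adjusted p = 6.54e-08). BBC3, the BH3 protein PUMA, differed by -0.86, and the leucine sensor gene SESN2 by -2.12. The groups of all 3 genes stood apart. PRDM1, a transcription factor of terminal differentiation, rose by 1.45, DRAM1, a lysosomal protein of autophagy, by 1.13 and TRIM22, an interferon-inducible ligase, by 1.12. PRDM1 and DRAM1 had DMSO means under 5.49, which gives at least 1.15-fold and 1.48-fold. When probe sets with an unspecific suffix were used last, PRDM1 differed by -0.028 and was not called.

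Of 15 upstream kinases, cofactors and ligases 5 rose and 4 fell (60% called), with a median of 0.03. With the spike-in centring 0 rose and 9 fell. TP53RK, a kinase that phosphorylates p53 in vitro, read 7.41, 7.23 and 7.40 on the MI-389 arrays and 8.62, 8.72 and 8.66 on the DMSO arrays, 2.50-fold lower with MI-389 (adjusted p = 1.80e-07). ATM, the kinase of double-strand breaks, rose by 0.45, the acetyltransferase CREBBP by 0.40 and the p300 cofactor TTC5 by 0.40. The kinases HIPK2 and CHEK1 fell by 0.30 and 0.23. HIPK2 lost its call without MI-389 replicate 2 (-0.22, adjusted p = 0.0658) and without DMSO replicate 2 (-0.25, adjusted p = 0.0910). With the probe sets of each gene averaged, the median of the list was 0.08, HIPK2 differed by -0.02 and CHEK1 by 0.094, and neither was called.

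Genes that p53 represses through p21 and the DREAM complex rose in 9 of 13 cases and fell in 2 (84.6% called), with a median of 0.35. With the spike-in centring 5 rose and 4 fell. The mitotic cyclin gene CCNB2 rose by 0.65, CDC20, the activator of the anaphase ligase, by 0.62 and the cyclin gene CCNA2 by 0.60, while the mitotic kinase PLK1 fell by 0.30 and CHEK1 by 0.23. PLK1 lost its call without DMSO replicate 2 (-0.24, adjusted p = 0.0689). When probe sets with an unspecific suffix were used last, 6 of the 13 genes rose and 2 fell, their median was 0.17, and CDC20 differed by 0.15 without a call. With the probe sets of each gene averaged the median was 0.23.

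All 8 genes of the ATF4 and CHOP list fell, with a median of -2.53, in a list composed with earlier results of these data known. DDIT4 was at least 16.1-fold lower, TRIB3 18.0-fold and the lipoprotein receptor gene VLDLR 9.92-fold. SESN2 stands in this list and in that of p53 targets. Among the p53 genes described here, TNFRSF10B fell and GDF15 was not called, and both are also known targets of CHOP. The part of ATF4 and CHOP in these values was not tested.

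Of 9 other genes of the caspase pathway 3 rose and 4 fell (77.8% called), with a median of -0.06. With the spike-in centring 3 rose and 6 fell. The effector caspase gene CASP6 rose by 0.89, the initiator CASP8 by 0.58 and its inhibitor CFLAR by 0.50. CASP9, the caspase activated on APAF1, fell by 0.42, the caspase inhibitor XIAP by 0.41 and its antagonist DIABLO by 0.24. DIABLO lost its call without DMSO replicate 2 (-0.22, adjusted p = 0.0514). When probe sets with an unspecific suffix were used last, 1 of the 9 genes rose and 4 fell with a median of -0.19, and CASP8, at 0.13, and CFLAR, at 0.0054, were not called.

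**Figure D4:**
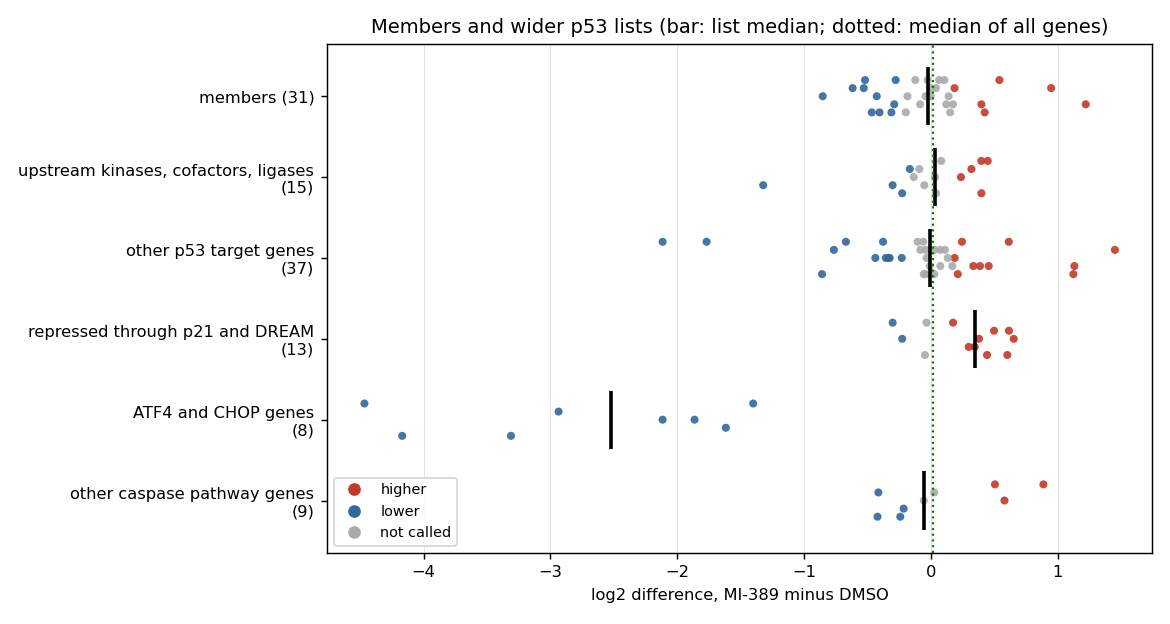
Log2 difference, MI-389 minus DMSO, of each measured gene of the 31 p53 genes and of 5 wider lists, with called genes in red (higher) and blue (lower), black bars at the list medians and the dotted line at the median of all genes. The medians of the p53 genes and of the other target genes lie at -0.03 and -0.0078, that of the genes repressed through p21 and DREAM at 0.35, and that of the ATF4 and CHOP genes at -2.53. All lists were composed with earlier results of these data known.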

How the data were processed

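The authors deposited a table of log2 expression values, with a row for each probe set and a column for each array. RMA and limma are the tools that the submitters' processing notes name, without versions or settings. The array medians of 4.47 to 4.50 show values normalised between arrays. Of 49386 probe sets, 93 controls were left out of the tests. The other 49293 comprised 45253 with a single annotated gene, 1327 that name several genes and 2713 without a gene. Symbols were updated through gene IDs in the RefSeq table of GRCh38.p14, which held the ID of 45172, and 81 kept the platform's symbol. Each gene took its probe set with the highest mean.

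The groups were compared with limma (version 3.58.1, R version 4.3.3, lmFit, then eBayes, two-sided, without covariates) over all genes, with Benjamini-Hochberg adjustment. The code was also run, after the main fit, on simulated data with independent noise. Their means and SDs were taken from the fitted values, so they cannot show effects of batch or normalisation. The text names all 33 members and, of each wider list, up to 3 called genes in each direction with the largest changes. Members, classes and lists were chosen with earlier results of these data known. The number of arrays limits the precision.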

Additional observations from a re-analysis of the deposited data

How the results depend on the processing

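The alternatives were a common array median, a further quantile normalisation, centring on 9 hybridisation spike-in probe sets, leaving out genes below the 40th percentile, the replicate number as a block, a variance trend with robust estimation, array weights, each array left out, the mean of all probe sets, probe sets with the suffixes _x_at, _s_at and _a_at last, adjusted p under 0.01 in place of 0.05 and a minimum fold of 1.2 (treat in limma). Of 523 values of the 31 genes under these, 454 kept direction and side of the threshold, 28 lost and 15 gained a call, and 26 turned sign, mostly of genes without a call. Part of the 454 could not have changed, so their share does not measure stability. Under the stricter thresholds a gene without a call keeps its difference and cannot gain a call. A gene with a single probe set keeps its difference when probe sets are averaged or reordered. Of the 16 called genes, 12 kept the call without each array in turn. The cause of the other changes was not tested, except that the spike-in centring lowers all genes alike and stricter thresholds call fewer.

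With the spike-in centring 12453 genes were called in place of 6214, 3 members higher and 20 lower, the members' median was -0.28, and 60 member probe sets were called in place of 30. Turned values were MDM4 -0.11, PPM1D -0.10, USP7 -0.21, TP53BP1 -0.13, XPC -0.066, RRM2B -0.078, POLH -0.19 and GDF15 -0.15. Treat called 2457 genes, 3 members higher and 5 lower, and 13 member probe sets. At 0.01, 6 members were lower. With the mean of all probe sets MDM2 (0.025), TP53BP1 (-0.064), FAS (0.060), SPATA18 (0.022) and CHEK1 (0.094) turned. With those suffixes last USP7 (-0.056), PERP (0.034) and PRDM1 (-0.028) turned, with the quantile normalisation TRIAP1 (0.021), and with array weights TRIAP1 (0.0030). With each array left out, the median ran between -0.060 and 0.0054, FAS between -0.060 and 0.042, PERP between -0.089 and 0.021, TRIAP1 between -0.021 and 0.017, RPS27L between -0.042 and 0.0054 and SPATA18 between -0.19 and 0.0014.

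With the replicate block 5725 genes were called, 5 members higher and 10 lower, and XPC alone of the 16 lost its call. Deviations of arrays with the same number correlated at -0.20, 0.02 and -0.14 across genes, and only DMSO replicate 2 correlated best with its own number. The labels do not say that a number marks a shared batch, so the main fit did not pair the samples. These correlations cannot exclude a pairing.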
